A study of Bos taurus with 18 samples.

Results

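The genes described here encode factors that control RNA polymerase II after it has started a transcript. They are the DSIF subunits SUPT4H1 and SUPT5H, the histone chaperone SUPT6H, the P-TEFb kinase CDK9 with its cyclins CCNT1 and CCNT2, the P-TEFb inhibitors HEXIM1 and LARP7, the kinase CDK12 and the transcript cleavage factor TCEA1. They were chosen by name as elongation factors, and all 10 were found among the 21668 genes of the deposited table and among the 17138 genes with enough reads to test. The choice followed an earlier look at these data, which reported SUPT4H1 and SUPT5H as higher in 4-cell embryos than in MII oocytes. Whether other stages also weighed in the choice is not recorded, so the tests below cannot be taken as fully independent of it. The 4-cell against MII comparison is given as values without a test for all 10 genes. The same holds for SUPT4H1 and SUPT5H in the comparisons of MII with GV oocytes and of 8-cell with 4-cell embryos, which share those libraries. Both genes were tested for 8-cell embryos against GV oocytes, but their GV and MII libraries overlapped. Their rises and p-values in that comparison are thus not independent of the choice.

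The study sequenced RNA from bovine oocytes and embryos produced in vitro, to map when the embryonic genome is switched on. It had 3 libraries of each of 6 stages, each made from 10 pooled oocytes or embryos. The groups were GV oocytes, taken before maturation, and MII oocytes, taken after maturation in vitro with FSH and LH, both freed of cumulus cells and of the German Simmental breed. The embryo groups were 4-cell embryos, 8-cell embryos, 16-cell embryos and blastocysts from fertilization in vitro with sperm of a Zebu bull, all labelled German Simmental x Brahman. The oocytes came from abattoir ovaries, embryos were picked by their appearance, and the labels name no treatment or allele that separates the stages and no age of the donors. Breed changed together with stage between MII oocytes and 4-cell embryos, so in every comparison of an embryo stage with an oocyte stage the effects of stage and breed cannot be told apart. Nothing in the labels says that the 3 pools of a stage came from separate collections. The p-values rest on the spread between pools of the same stage, estimated over all 6 stages together, and this spread may be technical.

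As background, known mainly from human cells, RNA polymerase II often halts soon after the start of a gene, held there by DSIF and the NELF complex. P-TEFb releases it by phosphorylating NELF, DSIF and the tail of the polymerase, after which DSIF stays on and helps elongation. In the 7SK particle, the RNA 7SK with MEPCE, LARP7 and HEXIM1 keeps P-TEFb inactive until it is needed. The fully grown oocyte and the first cleavage stages make little new RNA and live on stored maternal transcripts, and in cattle the main wave of genome activation falls around the 8-cell to 16-cell stages.

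Between 2438473 and 11971840 reads per library were assigned to genes. Levels are given as scaled counts, the recovered number of reads divided by the size factor of the library, in which a single read was worth 0.562 to 2.82. They are relative to the other genes of a library and not corrected for gene length, so they are compared between stages and not between genes. In pools, fewer cells of a type and less RNA per cell cannot be told apart. Differences are between the stage means of the deposited values, on a log2-like scale that shrinks the changes of genes with few reads, with the SE from limma. A gene rose or fell where the Benjamini-Hochberg adjusted p over all 17138 genes was under 0.05. A set of 8 oocyte markers summed to 65188 to 91101 in the oocyte libraries and to 85.2 to 179 in blastocysts. The 6 trophectoderm markers summed to 21308 to 50036 in blastocysts and to 266 to 1037 in the other libraries. Cumulus and granulosa markers, from cells that surround the oocyte, summed to 2328 to 2668 in GV oocytes, 2495 to 2685 in MII oocytes and 311 to 3156 in embryos. Of these 10 markers, TNFAIP6 was at 0 in GV oocytes, FSHR in MII oocytes, TNFAIP6, FSHR and HSD3B1 in 4-cell embryos and CD44 in blastocysts. Stage and these marker sums move together, and the part of other cells in the results was not tested. Among the 8-cell libraries, replicate 2 had the fewest genes with reads (12393 against 14081 and 14618) and the lowest level of 9 of the 10 elongation genes, so results at this stage are also given without it where a call changes. The 16-cell libraries were uneven too. Their replicate 1 had the fewest genes with reads of all 18 libraries (11970), and replicates 2 and 3 the fewest reads (2438473 and 3763632).

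The DSIF partners followed different courses. SUPT4H1, the small zinc finger subunit, was nearly absent from oocytes, with 1, 2 and 0 reads in the GV pools and 0, 1 and 0 reads in the MII pools. The 4-cell pools had 39, 61 and 15 reads, or scaled counts of 21.9, 34.4 and 19.6, and the 8-cell pools reached 2170.1, 2256 and 1782. All 8-cell libraries lay above those of every other stage. The 16-cell pools had 1637, 841 and 624 and the blastocyst pools 525, 561 and 335, again without overlap between stages. SUPT4H1 rose from GV oocytes to 8-cell embryos (difference 9.22 ± 0.55, adjusted p = 3.69e-10, higher in 3 of 3 libraries). Pooled over the 3 libraries of each stage, the ratio was 2706, with an exact 95% counting interval of 926 to 13125, since it rests on 3 reads in GV oocytes. The interval treats each read as an independent count, which reads of amplified cDNA are not, and leaves out the spread between pools. From 4-cell to 8-cell embryos the mean went from 25.3 ± 7.97 to 2069.6 ± 253 (SD, n = 3), a ratio of 81.7 that is given without a test. The later decline did not pass, with -1.11 ± 0.55 from 8 to 16 cells (adjusted p = 0.136) and -1.03 ± 0.55 from 16 cells to blastocyst (adjusted p = 0.169). limma voom on the recovered reads called the first of these steps a fall (adjusted p = 0.0137).

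SUPT5H, the large subunit that contacts the polymerase, was present from the start. GV pools had 154, 47.3 and 104, MII pools 126, 92.2 and 76.4 and 4-cell pools 605, 354 and 355. The 8-cell pools had 247, 239 and 325, the 16-cell pools 662, 802 and 607 and the blastocysts 891, 1019.9 and 561. The 4-cell libraries were thus all above both the oocyte and the 8-cell libraries, and the highest means came at the 2 last stages, which overlapped. SUPT5H rose from GV oocytes to 8-cell embryos (1.51 ± 0.42, adjusted p = 0.0151) and from 8-cell to 16-cell embryos (1.34 ± 0.42, adjusted p = 0.0196). Leaving out GV replicate 2 (adjusted p = 0.111) or 8-cell replicate 3 (0.0551) ended the first call. The second was lost without 8-cell replicate 1 (0.0541), 8-cell replicate 2 (0.0533) or 16-cell replicate 2 (0.0586).

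Read ratios within a library do not depend on the scaling between libraries. The log2 ratio of SUPT4H1 to SUPT5H reads (each plus 0.5) was -6.56 ± 1.71 in GV oocytes, -7.42 ± 0.84 in MII oocytes and -4.09 ± 0.71 in 4-cell embryos (SD, n = 3). It then was 2.94 ± 0.43 at 8 cells, 0.47 ± 0.72 at 16 cells and -0.79 ± 0.06 at the blastocyst stage. The ratio thus moved up between 4 and 8 cells and part of the way down again later, with no overlap between the 8-cell libraries and any others. The oocyte values rest on 0 to 2 SUPT4H1 reads per library and move with the added constant. In the RefSeq table of another assembly, ARS-UCD2.0, SUPT4H1 overlaps the lncRNA gene LOC132343000. The library protocol keeps no strand, and reads of overlapping genes therefore cannot be told apart.

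**Figure D1:**
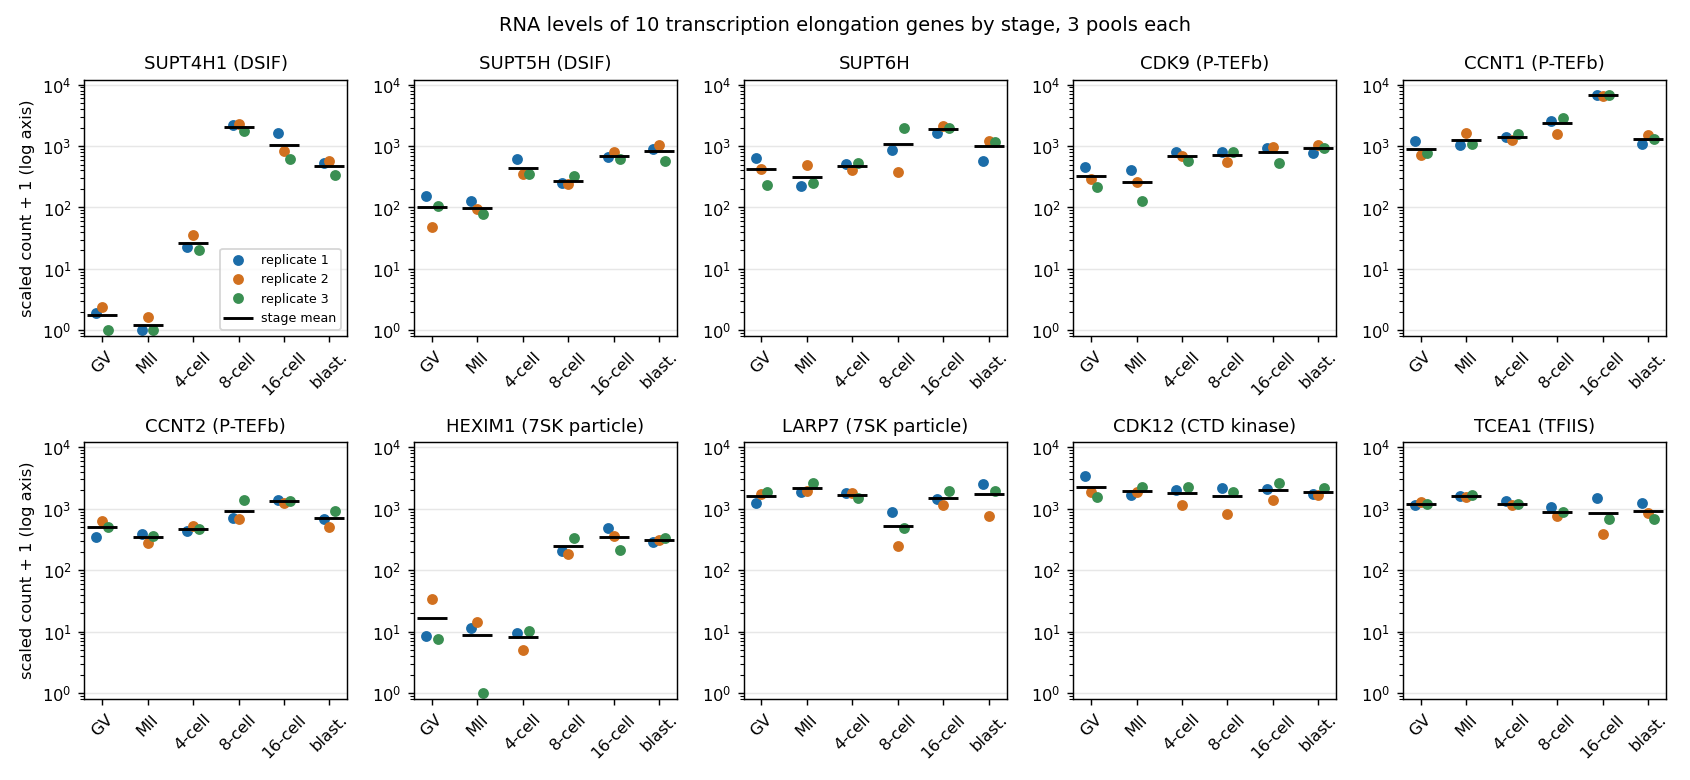
Scaled count plus 1 (log axis) of the 10 elongation genes in each of the 18 libraries by stage. Points are pools, coloured by replicate number, and black bars are stage means. SUPT4H1 and HEXIM1 are the genes that go from at most 34.4 scaled counts in every oocyte and 4-cell library to at least 186 in every 8-cell library, while the stage means of CDK12 stay between 1637 and 2258.

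SUPT6H encodes a histone chaperone that travels with elongating polymerase. Its scaled counts were 639.9, 415 and 230.3 in GV oocytes, 221, 484 and 247 in MII oocytes and 511, 405 and 525 in 4-cell embryos. The 8-cell pools spread widely, with 869.8, 373 and 1983, before 1649, 2084 and 1938 at 16 cells and 564, 1224 and 1159.7 in blastocysts. All 16-cell libraries lay above all blastocyst libraries but overlapped with the 8-cell libraries. No comparison passed for SUPT6H, with 1.12 ± 0.49 from GV oocytes to 8-cell embryos (adjusted p = 0.122) and 1.12 ± 0.49 from 8 to 16 cells (adjusted p = 0.0912). Without 8-cell replicate 2, SUPT6H rose against GV oocytes (1.73, adjusted p = 0.0124) and against 4-cell embryos (1.45, adjusted p = 0.0396). Without 8-cell replicate 3 it rose from 8 to 16 cells instead (1.72, adjusted p = 0.0101).

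Within P-TEFb, the kinase and its cyclins differed in when they were highest. CDK9, the kinase, had 461, 286 and 214 in GV oocytes, 404, 256 and 129 in MII oocytes and 809, 697 and 579.8 in 4-cell embryos. It had 797, 543 and 803 at 8 cells, 929, 946 and 523 at 16 cells and 782, 1034 and 925 in blastocysts. Every embryo library was above every oocyte library, and the 4 embryo stages overlapped as neighbours in the order of their means. CDK9 rose from GV oocytes to 8-cell embryos (1.20 ± 0.40, adjusted p = 0.0405). This call was lost in 4 of 6 fits without 1 library, those without GV replicate 2 (adjusted p = 0.109), GV replicate 3 (0.162), 8-cell replicate 1 (0.111) and 8-cell replicate 3 (0.11). From 4 to 8 cells the difference was 0.03 ± 0.40, with a 95% interval of -0.80 to 0.86.

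CCNT1, the main cyclin partner of CDK9, peaked at the 16-cell stage. It had 1196, 702 and 783 in GV oocytes, 1034, 1621 and 1070.3 in MII oocytes and 1386, 1257 and 1558 in 4-cell embryos. The 8-cell pools had 2586, 1552 and 2909.7, the 16-cell pools 6759, 6581 and 6752 and the blastocysts 1071, 1539 and 1279.7. The 16-cell libraries were close to each other and stood above all others, while blastocysts overlapped with the MII and 4-cell libraries. CCNT1 rose from GV oocytes to 8-cell embryos (1.38 ± 0.29, adjusted p = 0.00187) and from 8-cell to 16-cell embryos (1.56 ± 0.29, adjusted p = 0.000438). It fell from 16 cells to blastocyst (-2.38 ± 0.29, adjusted p = 2.85e-06). The fall passed in all 14 other fits of this comparison, and the rises passed in all but the fits to the libraries of both stages alone (adjusted p = 0.0656 against GV oocytes and 0.0516 against 8-cell embryos). Without 8-cell replicate 2, CCNT1 also rose from 4 to 8 cells (0.97, adjusted p = 0.0274), which with all libraries did not pass (0.70 ± 0.29, adjusted p = 0.129) except with array weights (0.83, adjusted p = 0.0397).

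CCNT2, the alternative cyclin, had its highest mean at 16 cells too, at 1314 ± 57. GV pools had 349, 639 and 509, MII pools 388, 277 and 357 and 4-cell pools 430.3, 530.4 and 459.7. The 8-cell pools had 714, 679 and 1394, the 16-cell pools 1362, 1251 and 1329 and the blastocysts 682, 505 and 907. The 8-cell libraries were all above the 4-cell and GV libraries, yet neither difference passed (0.89 ± 0.34, adjusted p = 0.0963, and 0.85 ± 0.34, adjusted p = 0.0872). CCNT2 fell from 16 cells to blastocyst (-0.95 ± 0.34, adjusted p = 0.0383), a call that was lost in 5 of 6 fits without 1 library. The call remained only without blastocyst replicate 3. The other 5 fits gave an adjusted p of 0.0777, 0.0604 and 0.0685 without 16-cell replicates 1, 2 and 3, and of 0.0736 and 0.148 without blastocyst replicates 1 and 2. The log2 ratio of CCNT1 to CCNT2 reads was 2.35 ± 0.04 at 16 cells, against 1.37 ± 0.43 at 8 cells and 0.92 ± 0.60 in blastocysts, and the 16-cell libraries did not overlap with either. In MII oocytes the ratio was 1.85 ± 0.61, and MII replicate 2, at 2.55, lay above every 16-cell library.

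The 2 inhibitors of P-TEFb among the 10 genes moved in opposite directions at 8 cells. HEXIM2, which is not among the 10, had means of 1202 in GV oocytes, 360 in MII oocytes, 320 at 4 cells and 157 at 8 cells. The HEXIM2 difference from GV to MII oocytes (-1.66 ± 0.58, adjusted p = 0.297) did not pass. Nor did that from 4 to 8 cells (-1.05 ± 0.58, adjusted p = 0.284). HEXIM1, which binds P-TEFb on 7SK and blocks the kinase, had 7.58, 32.5 and 6.6 in GV oocytes, 10.2, 13.2 and 0 in MII oocytes and 8.44, 3.95 and 9.14 in 4-cell embryos. It then had 207, 186 and 335 at 8 cells, 482, 356 and 209.7 at 16 cells and 282, 306 and 328 in blastocysts. The last 3 stages overlapped with each other and lay far above the first 3. HEXIM1 rose from 4-cell to 8-cell embryos (4.48 ± 0.75, 33.8-fold in mean scaled counts, adjusted p = 0.000244) and from GV oocytes to 8-cell embryos (3.87 ± 0.75, 15.6-fold, adjusted p = 0.000848). Both calls held in each of the 14 other fits. From 8 to 16 cells the difference was 0.49 ± 0.75 (adjusted p = 0.669).

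LARP7, which binds and stabilises 7SK, was lowest at the 8-cell stage. It had 1233, 1709 and 1858 in GV oocytes, 1879.8, 1967 and 2623 in MII oocytes and 1788, 1782 and 1476 in 4-cell embryos. The 8-cell pools had 869, 249 and 476, the 16-cell pools 1418, 1166 and 1915 and the blastocysts 2497, 757 and 1961. The 8-cell libraries lay below every library of the GV, MII, 4-cell and 16-cell stages. LARP7 fell from 4-cell to 8-cell embryos (-1.83 ± 0.42, adjusted p = 0.0046) and was lower at 8 cells than in GV oocytes (-1.74 ± 0.42, adjusted p = 0.0051). It rose from 8 to 16 cells (1.64 ± 0.42, adjusted p = 0.0052). All 3 calls held without each library in turn, with differences of -1.37 to -2.27, -1.29 to -2.18 and 1.19 to 2.08. They were lost in fits to the libraries of both stages alone (adjusted p = 0.102, 0.0919 and 0.123), and the last one also with array weights (0.0784). In ARS-UCD2.0, LARP7 overlaps the microRNA genes MIR302A, MIR302B, MIR302C, MIR302D and MIR367, which had at most 3.87 scaled counts in any library.

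Set against the kinase they restrain, the log2 ratio of HEXIM1 to CDK9 reads went from -6.60 ± 0.74 in 4-cell to -1.58 ± 0.34 in 8-cell embryos. It stayed at -1.22 ± 0.24 at 16 cells and -1.57 ± 0.16 in blastocysts, and no library of these 3 stages overlapped with the oocyte and 4-cell libraries. The ratio of LARP7 to CDK9 went the other way, from 1.28 ± 0.12 in 4-cell to -0.58 ± 0.64 in 8-cell embryos. It was 0.93 ± 0.83 at 16 cells and 0.77 ± 1.1 in blastocysts, where replicate 2, at -0.45, lay within the range of the 8-cell libraries. In oocytes the LARP7 to CDK9 ratio was 2.37 ± 0.87 at GV and 3.17 ± 1.08 at MII.

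**Figure D2:**
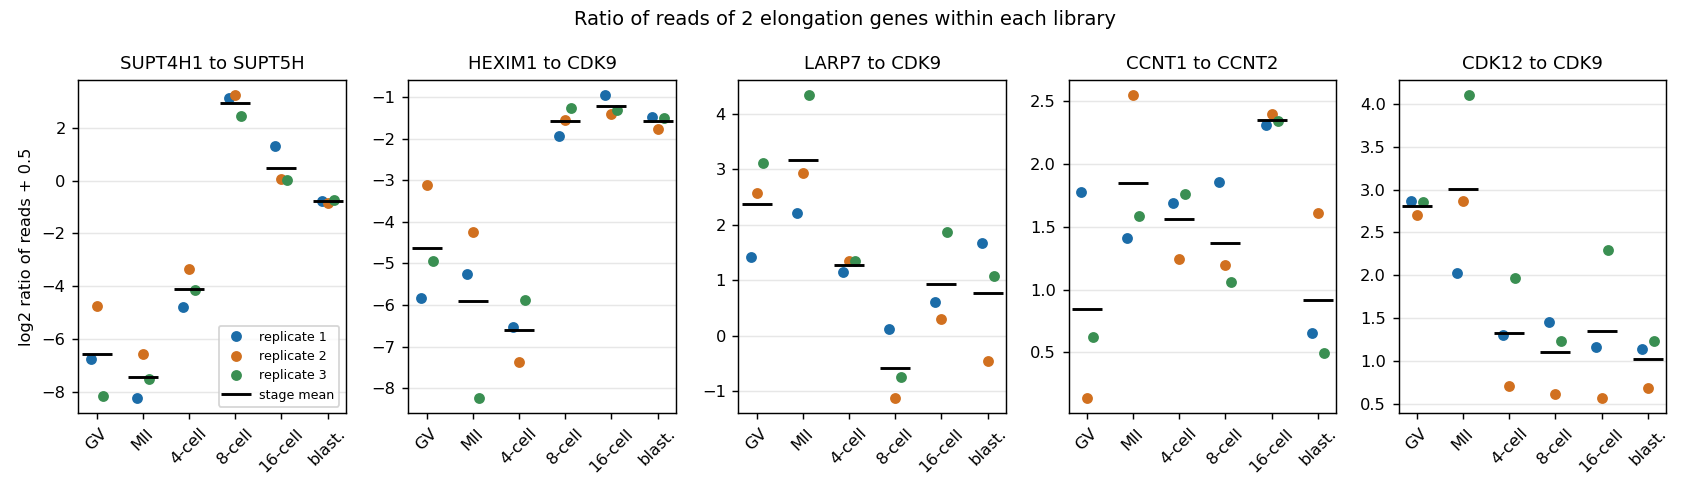
Log2 ratio of reads (each plus 0.5) of 2 elongation genes in the same library, by stage. Points are the 3 pools of a stage and black bars their means. SUPT4H1 to SUPT5H peaks at 2.94 in 8-cell embryos and HEXIM1 to CDK9 moves from -6.60 to -1.58 between 4 and 8 cells. The level of a ratio also reflects gene length, so only changes between stages can be read.

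CDK12, a kinase that with cyclin K phosphorylates the tail of elongating polymerase, had the most even course of the 10 genes. Its stage means ran from 1637 ± 713 at 8 cells to 2258 ± 964 in GV oocytes, each neighbour in that order overlapped with the next, and single libraries ranged from 831 to 3357. TCEA1 is a TFIIS factor that helps a stalled polymerase to cut its transcript and resume. Its means ran from 859 ± 585 at 16 cells to 1608 ± 41 in MII oocytes, where all 3 libraries were above those of every other stage. Neither gene passed in the 4 tested comparisons of successive stages or between GV oocytes and 8-cell embryos, where the differences were -0.50 ± 0.37 for CDK12 (95% interval -1.27 to 0.28) and -0.43 ± 0.36 for TCEA1 (-1.18 to 0.33). RGS20, a gene that overlaps TCEA1 in ARS-UCD2.0, had 0 to 117 scaled counts.

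From GV to MII oocytes limma called 0 of the 8 members tested, voom called 0 and 0 had an unadjusted p under 0.05, against 8.25% of all genes. Of all genes, 0.712% were called (0.0992% rises and 0.613% falls), and the median difference was -0.26 for the 8 members and 0.00 for all genes. With so few calls over all genes, 0 of 8 says little about the members, and the intervals were wide, as for HEXIM1 (-1.02, 95% interval -2.57 to 0.53). From MII oocytes to 4-cell embryos, where values alone are given, 4 of the 10 members had all libraries higher (SUPT4H1, SUPT5H, CDK9 and CCNT2) and 2 had all lower (LARP7 and TCEA1). Over all genes 7.4% were higher and 10.4% lower without overlap, and limma called 0.794% (0.0642% rises and 0.729% falls). This contrast led to the choice of the members, so nothing is read from those counts. CDK9 had a difference of 1.52 here and SUPT5H one of 2.09.

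From 4-cell to 8-cell embryos HEXIM1 rose and LARP7 fell among 8 members tested, against 12.8% of all genes called (8.64% rises and 4.13% falls). Without 8-cell replicate 2 there were 3 rises and 1 fall, CCNT1 and SUPT6H being added, with 15.7% of all genes called. From GV oocytes to 8-cell embryos 5 of 10 rose (SUPT4H1, SUPT5H, CDK9, CCNT1 and HEXIM1) and LARP7 fell, where 19% of all genes were called (9.45% rises and 9.5% falls). The median difference was 1.16 for the members and -0.05 for all genes. SUPT4H1 and SUPT5H, chosen for a rise from MII oocytes, are part of this count and median. Neither is therefore independent of the choice. Between 4 and 7 members were called without 1 library, in fits that called 12.7% to 19.5% of all genes. When the 6 libraries of both stages were fitted alone, SUPT4H1 and HEXIM1 were called (2 of 10), with 10.2% of all genes.

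From 8 to 16 cells 3 of 10 members rose (SUPT5H, CCNT1 and LARP7) and 0 fell, with 31.1% of all genes called (14.8% rises and 16.3% falls). Without 8-cell replicate 3, 5 rose, SUPT6H and CCNT2 being added, with 32.2% of all genes called. From 16 cells to blastocyst CCNT1 and CCNT2 fell and 0 rose, where 31.3% of all genes were called (18.2% rises and 13.1% falls). The share called in these 2 comparisons was thus near or below that of all genes. Setting library medians equal moved all differences by 0.32 from GV to MII oocytes, 0.12 from MII oocytes to 4 cells, -0.24 from 4 to 8 cells, -0.12 from 8 to 16 cells, -0.36 from 16 cells to blastocyst and 0.20 from GV oocytes to 8 cells. The share of rises among all calls then went from 13.9% to 27.5% from GV to MII oocytes, from 67.6% to 54.3% from 4 to 8 cells and from 58.1% to 45.6% at the blastocyst. It went from 49.9% to 59% between GV oocytes and 8 cells. The median difference of the members turned from -0.26 to 0.06 from GV to MII oocytes, while that of all genes went from 0.00 to 0.32. The call of each member in the tested comparisons was the same with equal medians, except that SUPT6H gained a rise against GV oocytes and a fall at the blastocyst.

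**Figure D3:**
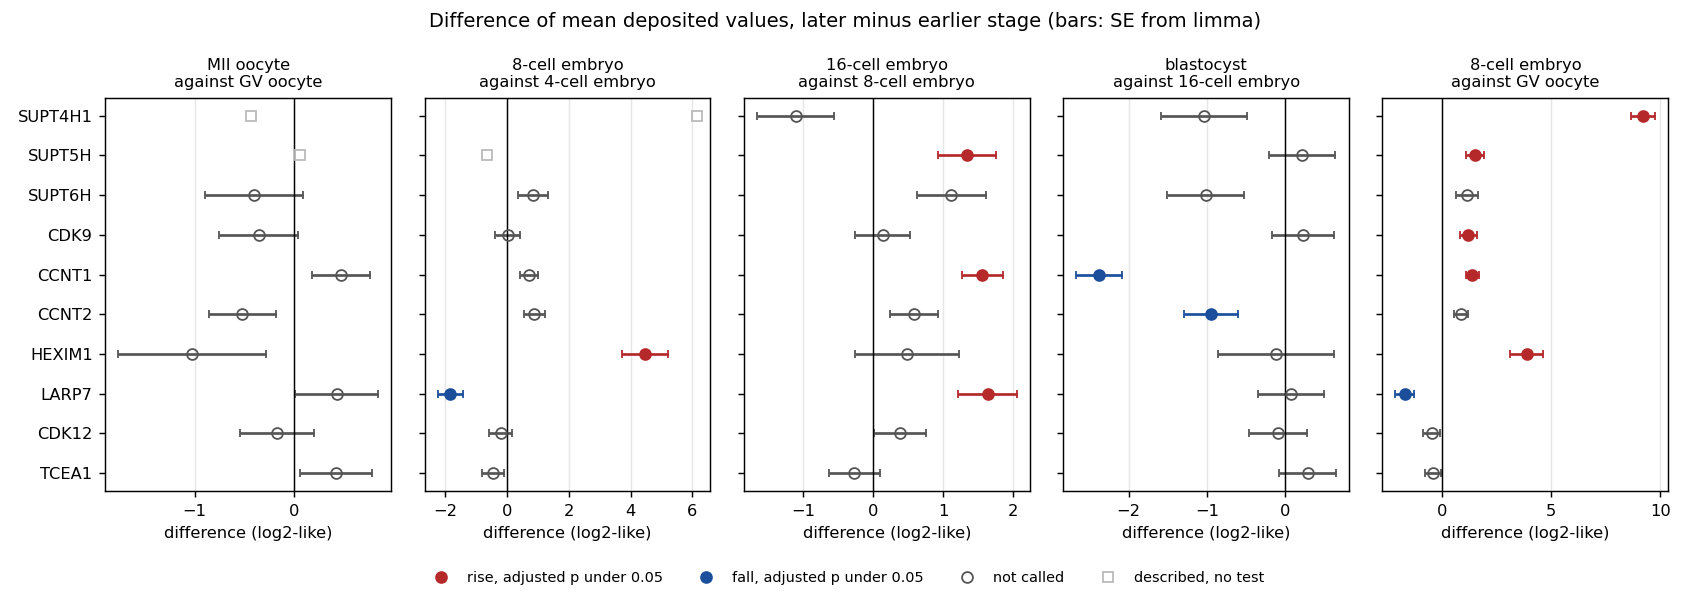
Difference of the mean deposited values, later minus earlier stage, of the 10 elongation genes in 5 comparisons, with bars of 1 SE from limma. Filled points are rises (red) and falls (blue) at an adjusted p under 0.05, open circles did not pass, and grey squares are values given without a test. HEXIM1 (4.48) and SUPT4H1 (9.22) have the largest called rises at 8 cells against 4 cells and GV oocytes, and CCNT1 has the largest called fall at the blastocyst (-2.38).

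Other genes of the same pathway were taken from a list of 37 elongation genes, of which 36 were measured. From GV to MII oocytes limma called 0 of 36, with 1 fall by voom and 3 at an unadjusted p under 0.05, against 8.25% of all genes. From MII oocytes to 4-cell embryos it called 0 of 36, with 5 at an unadjusted p under 0.05, against 7.7% of all genes. From 4 to 8 cells 9 of 36 rose and 1 fell, beside 8.64% rises and 4.13% falls over all genes, with a median difference of 0.18 against 0.00 for all genes. The rises with the smallest p were those of SETD2, which methylates histone H3 behind the polymerase, from 139 ± 27.3 to 5370.4 ± 3052 (adjusted p = 5.7e-08), and of ELL2, a subunit of super elongation complexes that carry P-TEFb, from 266 ± 66.8 to 5543 ± 3271 (adjusted p = 1.36e-06). TCEB3, the elongin A gene, followed, from 51.9 ± 18.2 to 1229.7 ± 467 (adjusted p = 0.000116). LEO1 of the PAF1 complex fell from 12960.3 ± 1739 to 6065 ± 2309 (adjusted p = 0.0141), a call that was lost without 4-cell replicate 2 (0.0571), 4-cell replicate 3 (0.0536) or 8-cell replicate 3 (0.102). In the fit to both stages alone LEO1 was not called (0.151), and the calls were 4 rises (SETD2, ELL2, TCEB1 and TCEB3) and a fall of SSRP1, with 5.93% of all genes called. Without 4-cell replicate 2 there were 6 rises and 0 falls, with 9.12% of all genes called.

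Against GV oocytes, 8 of the 36 rose at 8 cells and 3 fell, beside 9.45% rises and 9.5% falls over all genes. HEXIM2, the paralog of HEXIM1, fell from 1202 ± 536 to 157 ± 70.2 (-2.91 ± 0.58, adjusted p = 0.00123), while HEXIM1 rose. The HEXIM2 mean was already down to 360 in MII oocytes. The other falls were those of WDR61 of the PAF1 complex (1226 ± 349 to 248 ± 121, adjusted p = 0.000226) and of NELFE (listed as RDBP, 1014 ± 42.4 to 245 ± 131, adjusted p = 0.00704). WDR61 had means of 730 in MII oocytes and 465 at 4 cells. NELFE had means of 267 in MII oocytes and 106 at 4 cells, its lowest stage. From 4 to 8 cells the NELFE difference was upward and did not pass (1.36 ± 0.55, adjusted p = 0.119). ELL2 (adjusted p = 2.01e-06), SETD2 (2.05e-06) and elongin C (listed as TCEB1, 956 ± 206 to 4332 ± 1009, adjusted p = 7.99e-05) had the smallest p among the rises.

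From 8 to 16 cells 5 of 36 rose and 5 fell, beside 14.8% rises and 16.3% falls over all genes, a share close to that background. CCNK, the cyclin of CDK12, rose from 881 ± 41.5 to 2956 ± 562 (1.73 ± 0.25, adjusted p = 5.67e-05) at the stage where CCNT1 also rose. NELFE rose to 1312 ± 735 (adjusted p = 0.00227) and NELFCD (listed as TH1L) from 169 ± 90.3 to 451 ± 21.8 (adjusted p = 0.00749, and 0.053 without 8-cell replicate 1). LEO1 fell to 1130.5 ± 466 (adjusted p = 1.48e-05), PAF1 from 1376 ± 263 to 268 ± 134 (adjusted p = 6.58e-05) and ELL from 291 ± 26.2 to 30.4 ± 32.7 (adjusted p = 0.000101). With array weights 3 rose and 3 fell (20.5% of all genes called), and with both stages alone 1 rose and 1 fell (4.74%).

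At the blastocyst 2 of the 36 rose and 8 fell, beside 18.2% rises and 13.1% falls over all genes, and the median difference was -0.41 against 0.19 for all genes. ELL2 fell from 8486 ± 1278 to 602 ± 216 (adjusted p = 1.7e-06), elongin C from 7590.1 ± 2928 to 1132 ± 534 (adjusted p = 2.07e-06) and MLLT3, another super elongation complex gene, from 262 ± 113 to 21.8 ± 14.6 (adjusted p = 3.57e-05). SUPT16H of the histone chaperone FACT rose from 318 ± 159 to 1547 ± 687 (adjusted p = 0.000205). NELFB (listed as COBRA1) rose from 1.86 ± 3.21, 3 reads over 3 libraries, to 42.2 ± 11.8 (adjusted p = 0.00147). Earlier means of NELFB were 27 in GV oocytes, 21.6 in MII oocytes, 32.7 at 4 cells and 4.04 at 8 cells. Its blastocyst libraries overlapped with those of GV oocytes, MII oocytes and 4-cell embryos. NELFA (listed as WHSC2) had means of 224 ± 95.9 to 499.7 ± 280 and was not called in any tested comparison.

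**Figure D4:**
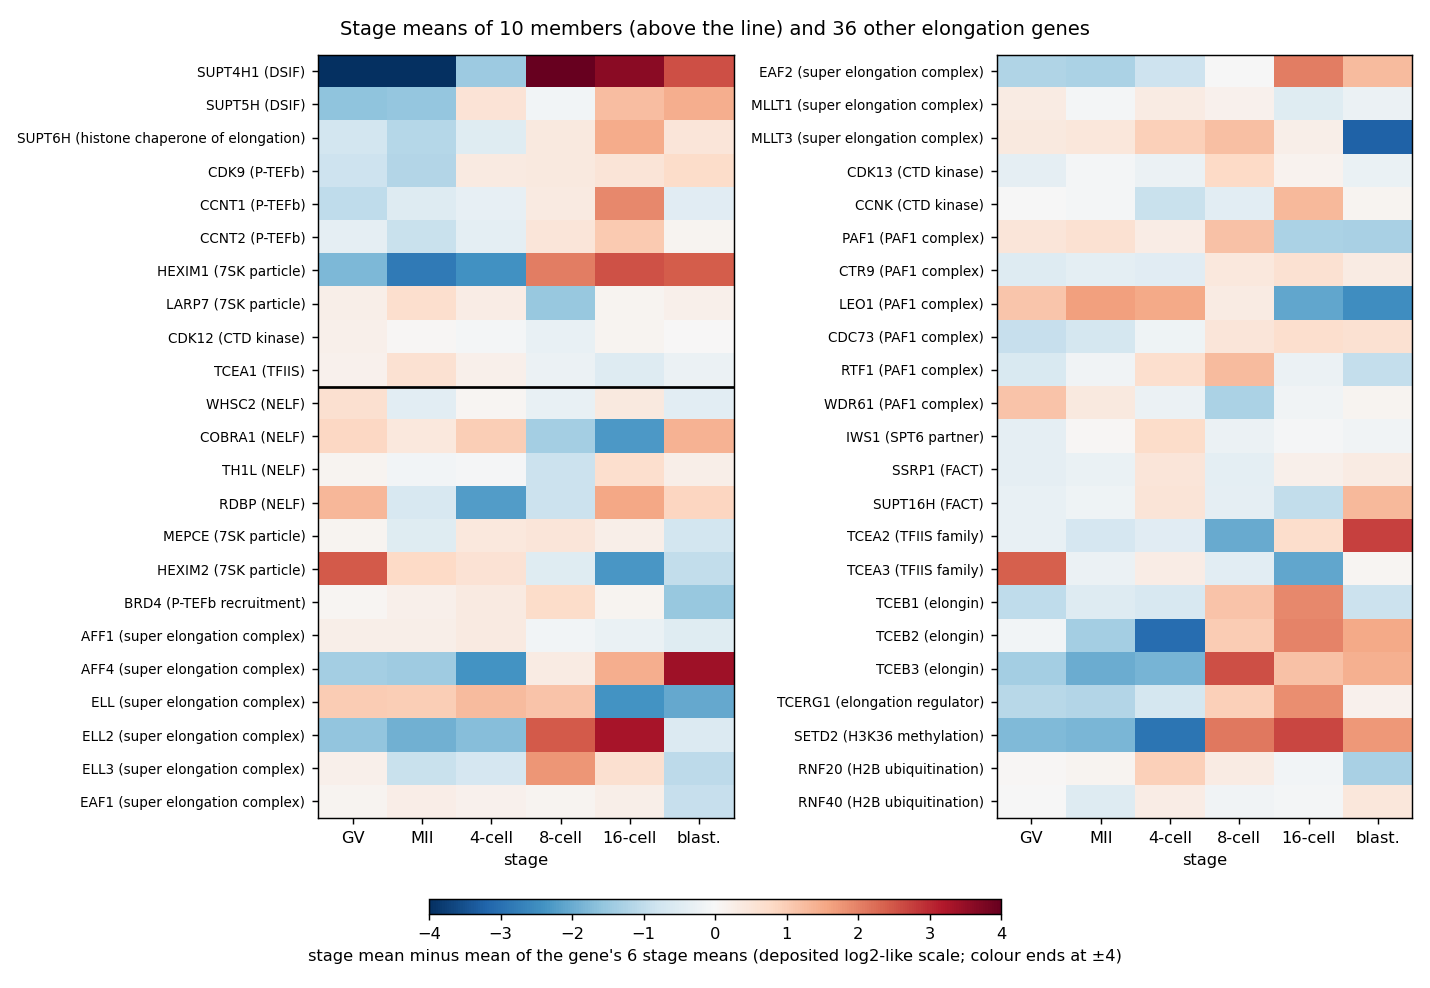
Stage means of the 10 members (above the line) and 36 other elongation genes, each minus the mean of its 6 stage means, on the deposited log2-like scale. Red is above and blue below the gene's own mean, with colour ending at ±4. SUPT4H1, HEXIM1, ELL2, TCEB3 and SETD2 turn from blue to red between 4 and 8 cells, and LEO1, ELL and HEXIM2 turn to blue by 16 cells.

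By the correlation of the 6 stage means, among 9591 genes with a symbol whose stage means spanned at least 2, the genes most like SUPT4H1 were DMC1 (r = 0.995), APCDD1 (0.994), KLHL28 (0.992), SRRT (0.991) and RBM14 (0.991). The points share libraries and depth, and the values are a description. DMC1 had only 37.9 ± 58.3 at 8 cells, and KLHL28 went from 15.6 ± 14.2 at 4 cells to 844 ± 394 at 8 cells. For SUPT5H the closest were ENOSF1 (r = 0.968), NDUFAF1 (0.966), TUSC1 (0.962), HIRA (0.958) and ENDOD1 (0.954). HIRA, a histone chaperone gene, had 32.5 ± 12.9 at 4 cells, 17.7 ± 13.2 at 8 cells and 75.1 ± 53 at 16 cells.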

How the data were processed

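RNA-seq values of 18 libraries in 1 deposited table were used. The authors deposited variance-stabilised values on a log2-like scale. DESeq, HTSeq, TopHat2 2.0.3, CASAVA 1.6 and the build UMD3.1 are listed in the submitters' processing notes. What each tool did, the annotation and the handling of multiply matching reads: not given in the sources used here. Per the labels' protocols, cDNA was primed with random and poly(A) primers and amplified before sequencing, so reads are not independent molecules.

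The transformation was inverted in closed form from the value of 0 reads (1.097), and all 390024 values gave whole reads within 1e-06. limma 3.58.1 in R 4.3.3 fitted stage over all 18 libraries on the deposited values of genes that had 1 read or more in 3 or more libraries, with a variance trend and two-sided tests. On simulated reads for 8-cell embryos against GV oocytes (17138 genes), the fit recovered 8 of 50 genes changed 2-fold, 36 of 50 changed 4-fold, 48 of 50 changed 8-fold and 50 of 50 changed 16-fold, with 2 unchanged genes called. The simulated spread was set by a formula and not estimated from these libraries. Changed genes were drawn only above a minimum mean level, and all others were flat over the stages. The rates are thus a check of the code and not those of these data. Alternatives were 2 other filters, equal library medians, voom with TMM, log2(scaled count + 1), both stages alone, array weights, a replicate block and leaving out each library. Same-numbered libraries deviated together beyond a correlation of 0.1 in all 3 pairs in 1 comparison, blastocyst against 16-cell embryo (0.113, 0.134 and 0.108), where the block changed no call of a member.

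The members and lists were chosen with earlier results of these data known. Named genes were the 10 members, in each comparison up to 3 rises and 3 falls of the other elongation genes by p, the NELF genes, and the 5 genes most like SUPT4H1 and SUPT5H. KLHL28 and HIRA were singled out among these after their values were seen. Gene names come from the table, and all 10 members matched the RefSeq table of ARS-UCD2.0. Python 3.11.15, pandas 2.3.3 and matplotlib 3.10.9 made tables and plots.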

Additional observations from a re-analysis of the deposited data

How the results depend on the processing

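Called differences of members and named genes kept direction and call in 186 fits without 1 library and lost the call but not the direction in 18. Under the other settings the numbers were 255 and 17. Most other named genes were picked by small p, which favours stable calls, so these pooled numbers do not describe the members alone. Without 1 library, members lost calls for CCNT2 at the blastocyst (5 of 6 fits) and CDK9 against GV oocytes (4 of 6). SUPT5H lost its call from 8 to 16 cells in 3 of 6 fits and against GV oocytes in 2 of 6. The other genes that lost calls were LEO1 from 4 to 8 cells (3 of 6) and NELFCD from 8 to 16 cells (1 of 6). Counts of called members moved by over 1.5 times when the libraries of both stages were fitted alone, to 1 from 4 to 8 cells, 1 from 8 to 16 cells, 1 at the blastocyst and 2 against GV oocytes. Fewer libraries then estimate the spread, and over all genes the share called also fell, from 12.8% to 5.93%, 31.1% to 4.74%, 31.3% to 17% and 19% to 10.2%. Array weights gave 1 from 8 to 16 cells and 1 at the blastocyst, and voom 1 at the blastocyst (20.5%, 23.6% and 28.5% of all genes), and the cause was not tested. For the other elongation genes, both stages alone gave 5 from 4 to 8 cells (5.93% of all genes) and 2 from 8 to 16 cells (4.74%). Array weights gave 6 from 8 to 16 cells (20.5%). From GV to MII oocytes array weights gave 3 of 36, with 4.95% of all genes called, and voom 1, with 0.98%. Without 1 library, called members numbered 2 to 4 from 4 to 8 cells, in fits that called 9.02% to 15.7% of all genes. They numbered 2 to 5 from 8 to 16 cells (24.2% to 32.2% of all genes) and 1 to 2 at the blastocyst (25.4% to 32%). Called other elongation genes numbered 6 to 11 from 4 to 8 cells. With the replicate block, member counts were 0, 2, 3, 2 and 6 in the 5 tested comparisons, equal to those without it, and no other call of a member changed. The block called 1.05%, 13.8%, 32.8%, 32.9% and 20.4% of all genes in the same order. Same-numbered libraries correlated at -0.0023 to 0.202 outside the blastocyst comparison.

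Differences that changed sign all belonged to members not called. With equal medians these were CDK12 in MII oocytes (0.149), CDK9 from 4 to 8 cells (-0.211) and, at the blastocyst, SUPT5H (-0.138), CDK9 (-0.126), LARP7 (-0.283) and TCEA1 (-0.069). With array weights they were CDK12 from 4 to 8 cells (0.015) and CDK9 from 8 to 16 cells (-0.004). Without 1 library, ranges from GV to MII oocytes were -0.731 to 0.078 for CDK9 and -0.393 to 0.16 for CDK12. From 4 to 8 cells they were -0.094 to 0.215 for CDK9 and -0.494 to 0.234 for CDK12. From 8 to 16 cells they were -0.051 to 0.413 for CDK9, -0.051 to 0.644 for CDK12 and -0.788 to 0.181 for TCEA1. At the blastocyst they were -0.046 to 0.378 for CDK9, -0.438 to 0.154 for HEXIM1, -0.268 to 0.59 for LARP7, -0.334 to 0.102 for CDK12 and -0.161 to 0.808 for TCEA1. Depth limits SUPT4H1 in oocytes, with 3 reads over the GV and 1 over the MII libraries.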
